A study of Mus musculus with 4 samples.

Results

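Lamp5 and Ndnf interneurons were taken from single-nucleus RNA counts of mouse cerebral cortex by a rule on a few transcripts, and 382 nuclei met it out of 30515 that passed the quality filter and 30784 deposited. Members were chosen by their own counts of UMIs (unique molecular identifiers, each marking 1 captured RNA molecule). A nucleus first had to show no more than 7000 genes, with mitochondrial UMIs making up 1% or less. It then needed 2 or more UMIs of Gad1 and Gad2 together, 0 of Slc17a7, 0 of Vip, 2 or more of Adarb2, 1 or more of Lamp5 or Ndnf, and fewer than 3 of Sst. All mice were labelled Gclc-KO and received no treatment: a floxed Gclc allele derived from C57BL/6NTac mice had been combined with Cre under the CaMKII promoter, which is active mainly in excitatory forebrain neurons. Gclc encodes the catalytic subunit of the enzyme that makes the first product of glutathione synthesis. No wild-type library was analysed here, so the comparisons are of 3 against 6 months of age, with 2 libraries at each age, and of the class against other interneurons of the same libraries. The tissue was cortex rich in rod-shaped microglia, and DAPI-stained nuclei were sorted before capture. Values of the 4 libraries are given below in a fixed order, 3-month replicates 1 and 2, then 6-month replicates 1 and 2.

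Cortical interneurons that carry Lamp5 or Ndnf arise mostly from the caudal ganglionic eminence and share the RNA-editing factor Adarb2 with Vip interneurons, while Sst and Pvalb interneurons come from the medial eminence. They include the neurogliaform cells, which release GABA diffusely and act through both GABA-A and GABA-B receptors, and many of them lie in the outermost layer of the cortex. Lamp5 encodes a membrane protein of vesicles, Ndnf a secreted neurotrophic factor, and Reln the large extracellular protein reelin that many of these cells secrete.

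The sequences upstream of the start of Lamp5, which names the class, and of Reln, a marker outside the rule that was higher in the class than in each class compared below, were read from RefSeq (GRCm38.p6, the patch release of the mm10 build of the files). Each run holds the 250 bases before the annotated start, 5′ to 3′ on the gene's strand. Lamp5 has a second listed start, which is not shown. Capitals mark matches on either strand to 6 short motifs: the TATA box (TATAAA), the CCAAT box (CCAAT), the GC box (GGGCGG), an E box (CAGCTG), a homeodomain core (TAATTA) and a nuclear receptor core (AGGTCA).
Lamp5, chr2:136052089-136052338, plus strand: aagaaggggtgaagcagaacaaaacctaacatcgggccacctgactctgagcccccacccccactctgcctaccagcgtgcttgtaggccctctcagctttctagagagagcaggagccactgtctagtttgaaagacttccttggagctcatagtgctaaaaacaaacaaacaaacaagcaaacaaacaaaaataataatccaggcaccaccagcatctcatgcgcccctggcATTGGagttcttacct
Reln, chr5:22344706-22344955, minus strand: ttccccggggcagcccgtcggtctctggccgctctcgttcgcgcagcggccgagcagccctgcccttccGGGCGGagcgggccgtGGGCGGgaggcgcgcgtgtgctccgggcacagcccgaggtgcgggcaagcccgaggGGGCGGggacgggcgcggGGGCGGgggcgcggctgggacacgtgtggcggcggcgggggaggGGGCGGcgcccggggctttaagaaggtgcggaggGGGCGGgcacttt
The Lamp5 window held 1 match, to CCAAT read on the other strand, a motif present in 33.8% of all 32851 listed promoter windows of that length. The Reln window held 6 matches to GGGCGG, which 32.7% of the windows hold at least once. These are matches of letters only.

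The class was measured at a depth of 899496, 672716, 1172564 and 693394 UMIs in 90, 91, 130 and 71 nuclei. The median nucleus held 9161, 6385, 8169.5 and 9399 UMIs, so the second 3-month library was the shallowest. Levels are given as CPM, counts scaled to the same total for every library and class, and are compared between samples or classes, not between genes. Of the 3190 nuclei with Gad1 and Gad2 at 2 or more UMIs and no Slc17a7, the members were 12.1%, 11.4%, 13.1% and 10.9%. The other classes compared were 305 Vip nuclei (2 or more Vip and Adarb2 UMIs), 168 Sst nuclei (3 or more Sst UMIs) and 137 Pvalb nuclei (2 or more Pvalb UMIs). The last 2 classes had fewer than 2 Adarb2 UMIs, and the first 3-month library held only 10 Sst nuclei. A pair of libraries shared between 12 and 19 barcodes, out of 6802 to 8750 nuclei.

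The genes of the rule are given as a description only, since they chose the nuclei. Lamp5 stood at 143, 242, 134 and 153 CPM and Ndnf at 102, 126, 149 and 130 CPM. Over the members, 200 nuclei had Lamp5 only, 84 had Ndnf only and 98 had both. Detection was thin: 153 of the 382 members had a single UMI of Lamp5 and Ndnf together, and the most seen in 1 nucleus was 7 for Lamp5 and 14 for Ndnf. Adarb2, by contrast, had a median of 33.5, 20, 34.5 and 48 UMIs per member, and Gad1 stood at 417, 470, 448 and 447 CPM. Just outside the rule lay 531 nuclei that met every condition except a Lamp5 or Ndnf UMI, and their summed Reln level was 402 CPM. The 153 members with 1 such UMI had 744 CPM of Reln, and the 152 members with 3 or more had 1854 CPM.

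Markers outside the rule matched the label in part. Reln was at 1058, 996, 1507 and 1321 CPM in the class against 124, 79.0, 167 and 138 CPM in Vip nuclei, with no overlap. Kit, a receptor tyrosine kinase, was at 327, 494, 455 and 365 CPM, and Sv2c, a synaptic vesicle protein, at 229, 372, 287 and 255 CPM. At least 1 Reln UMI was found in 65.6%, 56.0%, 75.4% and 80.3% of members. After nuclei with 3000 UMIs or more were thinned to that number (89, 87, 129 and 71 members), these shares were 58.4%, 44.8%, 67.4% and 71.8%, and in oligodendrocyte nuclei, which should lack Reln, they were 1.58%, 2.94%, 3.59% and 1.15% at the same depth, over the 380, 102, 251 and 262 of 744, 566, 1199 and 914 nuclei deep enough. Oligodendrocyte nuclei here had 3 or more St18 UMIs and no Gad1, Gad2 or Slc17a7, and a median of 3013.5, 1961.5, 2200 and 2516.5 UMIs before thinning. Of 6 markers of Sncg and Cck basket interneurons, Krt73 and Slc17a8 had no UMI in any member and Sncg had 1. Krt73 and Slc17a8 had none in Vip, Sst or Pvalb nuclei either, and Sncg none in Sst or Pvalb nuclei. Their absence therefore does not set the class apart. The summed level of the 6 was 169, 152, 132 and 176 CPM, mostly Cnr1, the cannabinoid receptor gene, which had 422 UMIs in the class. That sum was 479, 498, 382 and 353 CPM in Vip nuclei, between 33.4 and 63.6 CPM in Sst nuclei and between 11.2 and 39.1 CPM in Pvalb nuclei, so the class lay between them.

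A small group of members carried another programme. Meis2 and Foxp2, transcription factor genes known from other inhibitory neurons of the forebrain, together reached 3 or more UMIs in 18, 10, 10 and 5 members, 43 in all. Their Reln level was 154, 45.3, 217 and 717 CPM and their Kit level 21.2, 11.3, 75.3 and 0 CPM. These 2 markers went against the label, except for Reln in the second 6-month library. Other class markers were present in these nuclei, Sv2c at 159, 170, 217 and 84.4 CPM and Nxph1 at 329, 442, 318 and 942 CPM. In members with neither these UMIs nor 2 or more of St18, an oligodendrocyte transcription factor gene, Reln was at 1323, 1188, 1698 and 1447 CPM. Sv2c was at 245, 408, 305 and 261 CPM there and Nxph1 at 1682, 1826, 1933 and 1994 CPM. Members with 2 or more St18 UMIs numbered 3, 3, 8 and 5. The doublet caller Scrublet marked 6, 2, 15 and 7 of the members. Results that rest on these members are also described without the members of both groups, which leaves 322.

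**Figure D1:**
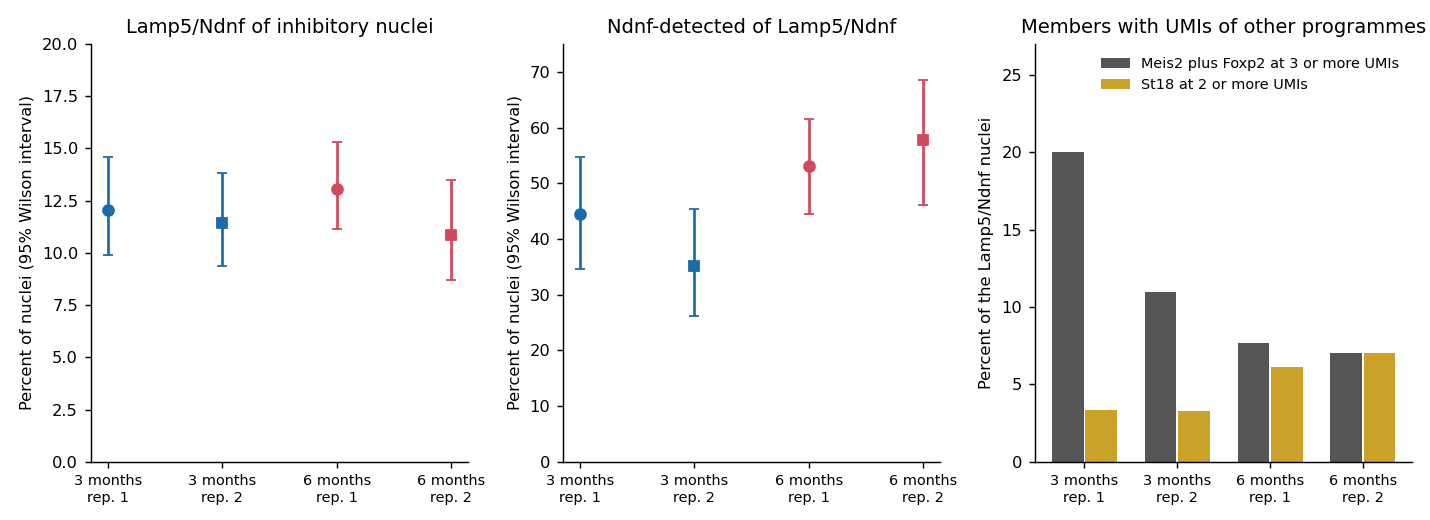
Left, percent of inhibitory nuclei that were Lamp5/Ndnf members; middle, percent of members with an Ndnf UMI; right, percent of members with 3 or more Meis2 plus Foxp2 UMIs or 2 or more St18 UMIs; x axes show the 4 libraries, blue for 3 and red for 6 months, and bars on points are 95% Wilson intervals. The intervals of the left panel overlap throughout, and 18 of 90 members carried Meis2 and Foxp2 in the first 3-month library and 5 of 71 in the second 6-month library.

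Gclc was measured first because it is the targeted gene. It stood at 42.2, 37.2, 36.7 and 33.2 CPM in the class, from 38, 25, 43 and 23 UMIs. Over all nuclei of the same libraries it stood at 43.5, 35.1, 35.5 and 38.6 CPM. The class did not differ detectably from Vip (log2 fold change 0.18 ± 0.21 SE, adjusted p = 0.67), Sst (-0.27 ± 0.23, adjusted p = 0.53) or Pvalb nuclei (-0.34 ± 0.23, adjusted p = 0.31). Counts are of transcript 3′ ends and introns, so they do not show which copies of the floxed allele were intact.

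The class was then set against Vip interneurons, the nearest relatives by origin, within each of the 4 libraries. Of 9558 genes tested, 875 (9.15%) were higher in Lamp5/Ndnf nuclei and 938 (9.81%) lower (edgeR quasi-likelihood test with the library as a block, Benjamini-Hochberg adjusted p under 0.05, the rule for every call below), which is 19.0% of the genes. The 9 genes that defined the classes were left out of all tests. DESeq2 called 971 genes in place of 1813.

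Of 21 listed markers of the class that the rule did not use, 18 were tested against Vip nuclei. In the class libraries alone 15 passed the filter on low counts, so some were tested only through Vip nuclei. Others, such as Cplx3 with 55 UMIs against 0 in Pvalb nuclei, could be tested only through the class. Single genes are therefore given, and no count is drawn from the list. Nxph1, a ligand of neurexins, stood at 1625 ± 172 CPM (SD, n = 4) against 116 ± 52.6 CPM, and Reln at 1221 ± 237 against 127 ± 36.8 CPM, each higher in 4 of 4 libraries. The log2 fold change was 3.74 ± 0.16 (SE) for Nxph1 (edgeR adjusted p = 7.5e-14) and 3.18 ± 0.11 for Reln (edgeR adjusted p = 2.9e-15). Nxph1 is also a marker of Sst interneurons, and its level in the class was lower than in Sst nuclei (2369 ± 172 CPM, log2 fold change -0.58 ± 0.11, edgeR adjusted p = 0.00067) and not called against Pvalb nuclei (1736 ± 239 CPM, adjusted p = 0.31). Sv2c, Npy, Id2 and Kit were higher by 3.16, 2.06, 1.93 and 0.68 on the log2 scale. Npy2r, Egln3, Cxcl14 and Npas1 were lower than in Vip nuclei, at log2 fold changes of -3.54, -2.56, -2.33 and -2.13, the last being a transcription factor gene shared by caudal interneurons.

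The largest rises against Vip nuclei were in Ddr2, a collagen receptor (40.6 against 1.65 CPM, log2 fold change 4.36 ± 0.45), Ror1, a Wnt receptor (4.19 ± 0.49), and Foxp2 (4.09 ± 0.44). They were followed by Vcan, a matrix proteoglycan gene also known from oligodendrocyte precursors (3.96 ± 0.30), Fgf10, a growth factor (3.80 ± 0.47), the long noncoding RNA C87487 (3.75 ± 0.38), Myo3a with 71 UMIs against 3, Nxph1, Tox3 (3.55 ± 0.24) and Mpped1 (3.50 ± 0.19). Foxp2 stood at 165, 98.1, 52.0 and 17.3 CPM in the class and was at 775, 702, 452 and 127 CPM within the 43 nuclei described above. In the 322 members outside both groups it was at 2.90, 7.20, 7.09 and 3.62 CPM, and in Vip nuclei at 1.61, 0, 7.41 and 7.24 CPM. Foxp2 UMIs helped choose the nuclei removed, while Vip nuclei had no such cut. The low Foxp2 level of the 322 members was therefore set by the choice and is a description only. Foxp2 was too low to be tested in that setting. The summed level of 4 oligodendrocyte precursor markers was 95.6, 146, 92.1 and 82.2 CPM in the class against 9.64, 2.03, 22.2 and 21.7 CPM in Vip nuclei, between 6.68 and 16.5 CPM in Sst nuclei and at most 2.61 CPM in Pvalb nuclei. All 4 were detected in the class, and Vcan was the most abundant with 279 UMIs. Pdgfra, the receptor gene that defines those precursors, had 38 UMIs in the class, 10 in Vip nuclei and 1 in each of the other two classes. The part of such RNA in the Vcan difference was not tested. Without the Meis2, Foxp2 and St18 nuclei Ddr2, Vcan and Reln were higher by 4.54, 4.09 and 3.38 on the log2 scale.

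The largest falls against Vip nuclei were the following. Crispld2 and Itih5 had 0 UMIs in the class against 111 and 48, levels at least 54.3-fold and 23.5-fold lower by a floor of 3 UMIs over the class. Crh, the peptide corticotropin-releasing hormone, had 2 UMIs against 133, and Pthlh and Aebp1 had 1 and 2 against 47 and 50. Plpp4 stood at 3.59 against 176 CPM (log2 fold change -5.66 ± 0.23), Lama3, a laminin chain, at 1.13 against 51.2 CPM, and Rspo2, a Wnt agonist, at 1.34 against 46.7 CPM. Rspo2 was also lower than in Sst (-3.88) and Pvalb nuclei (-4.18), so its fall is not particular to the Vip comparison. Tshr and Itga4 completed the 10, at -4.68 ± 0.54 and -4.63 ± 0.45. Of the 8 Vip markers outside the rule, 2 passed the filter on low counts in the class libraries alone, and the others could be tested only through Vip nuclei, where they are high, so no count is drawn from the list. The peptide and calcium-binding protein genes Tac2 and Calb2 were at log2 fold changes of -4.11 and -3.75, and Chat had 2 UMIs in the class against 41.

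**Figure D2:**
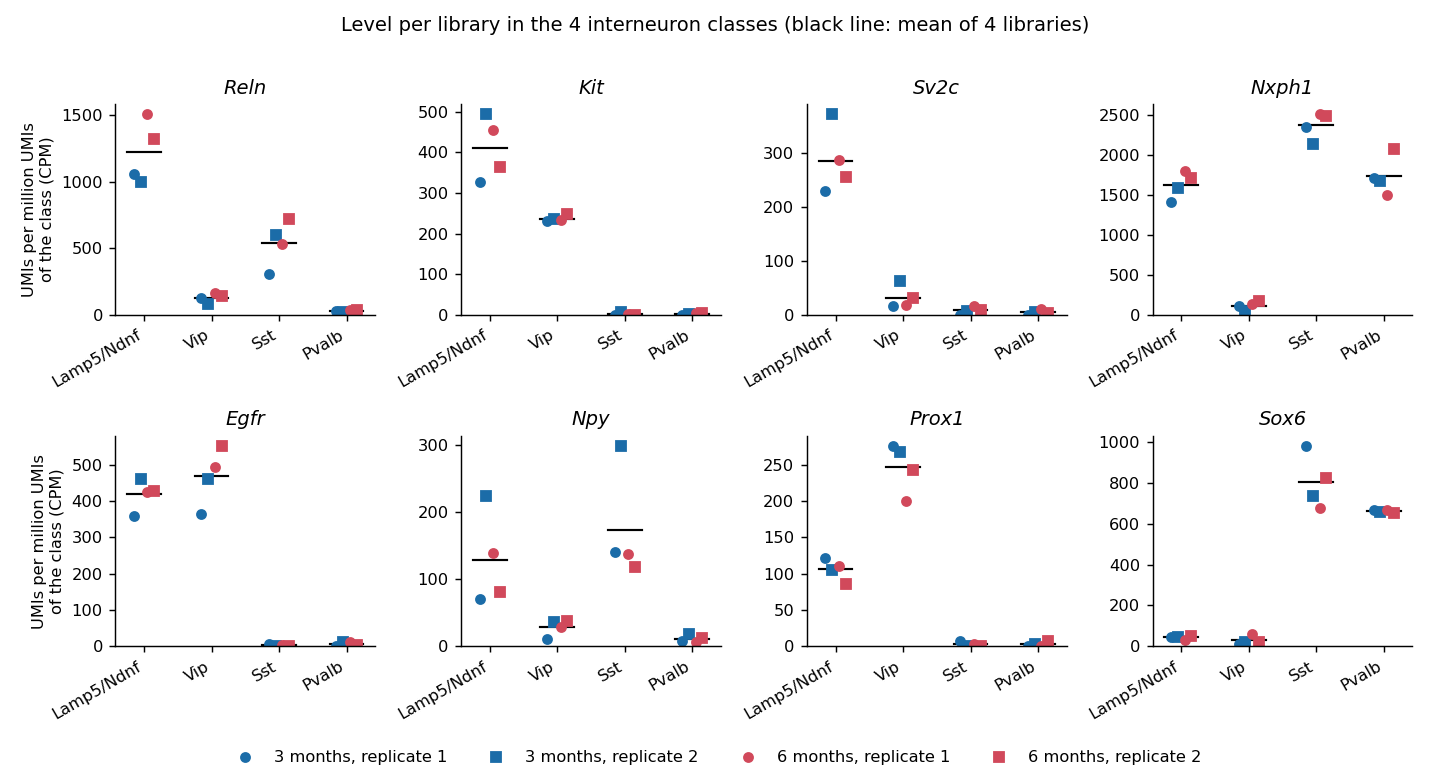
Levels of 8 genes (y axis, CPM) in each of the 4 libraries for the 4 interneuron classes (x axis); points are libraries, blue for 3 and red for 6 months, and black lines are means of 4. Reln lies between 996 and 1507 CPM in Lamp5/Ndnf nuclei and at most at 722 CPM in the other 3 classes. Egfr has a mean of 419 CPM in the class and 468 CPM in Vip nuclei, and Sox6 means of 805 and 662 CPM in Sst and Pvalb nuclei.

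Genes of GABA receptors and GABA handling were described next. Against Vip nuclei 7 of 13 GABA receptor genes tested were higher and 1 lower, and against Pvalb nuclei 6 of 13 and 4. Against Sst nuclei 14 were tested but 13 passed the filter on low counts in the class libraries alone, so no count is given. Over all genes tested, 9.15% were higher and 9.81% lower against Vip, 8.52% and 7.89% against Sst, and 14.8% and 15.1% against Pvalb. Of 6 genes of GABA synthesis, packaging and uptake, 3 were higher and 0 lower against Vip, 2 and 0 against Sst, and 2 and 2 against Pvalb. The median log2 fold changes of the receptor list were 0.31 against Vip and 0.32 against Pvalb nuclei, beside medians over all genes tested of 0.00 and 0.02. Gabrd, the delta subunit of extrasynaptic GABA-A receptors, stood at 47.8, 52.0, 46.1 and 36.1 CPM in the class. It was higher than in Vip (2.04 ± 0.27, edgeR adjusted p = 3.1e-06) and Sst nuclei (2.76 ± 0.35, adjusted p = 1.3e-05) and lower than in Pvalb nuclei (-1.28 ± 0.17, adjusted p = 2.7e-07). Gabra5, another extrasynaptic subunit, and Gabbr2, a GABA-B receptor subunit, were higher than in all 3 classes. Gabra5 differed by 1.49, 3.26 and 1.21 and Gabbr2 by 1.16, 1.21 and 0.45 on the log2 scale against Vip, Sst and Pvalb.

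Slc6a11, a GABA transporter gene better known from astrocytes, was higher than in Vip, Sst and Pvalb nuclei by 1.12, 2.07 and 3.27 on the log2 scale. The astrocyte glutamate transporter genes Slc1a3 and Slc1a2 moved with it in part: Slc1a3 was higher by 1.96, 2.76 and 2.57, and Slc1a2 was lower than in Vip nuclei (-0.51) and higher than in Sst (2.29) and Pvalb nuclei (2.19). The summed level of 7 astrocyte markers in the class was 196, 262, 228 and 231 CPM against 148, 229, 324 and 257 CPM in Vip nuclei. It was 40.1, 54.7, 100 and 79.6 CPM in Sst nuclei and 61.5, 65.2, 135 and 66.4 CPM in Pvalb nuclei, lower than in the class in each library. All 7 were detected in the class and Slc1a2 was the most abundant. Their part in these results was not tested.

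Glutamate receptor genes moved in both directions. Grin2a, an NMDA receptor subunit, was higher than in Vip, Sst and Pvalb nuclei by 1.84 ± 0.09, 1.11 ± 0.14 and 1.74 ± 0.12. The metabotropic receptor gene Grm7 was lower than in Vip and Sst nuclei by log2 fold changes of -2.39 and -1.96. Of 22 genes of the list, 6 were higher and 8 lower against Vip, 1 and 9 against Sst, and 12 and 6 against Pvalb, where 19.0%, 16.4% and 29.9% of all genes were called.

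**Figure D3:**
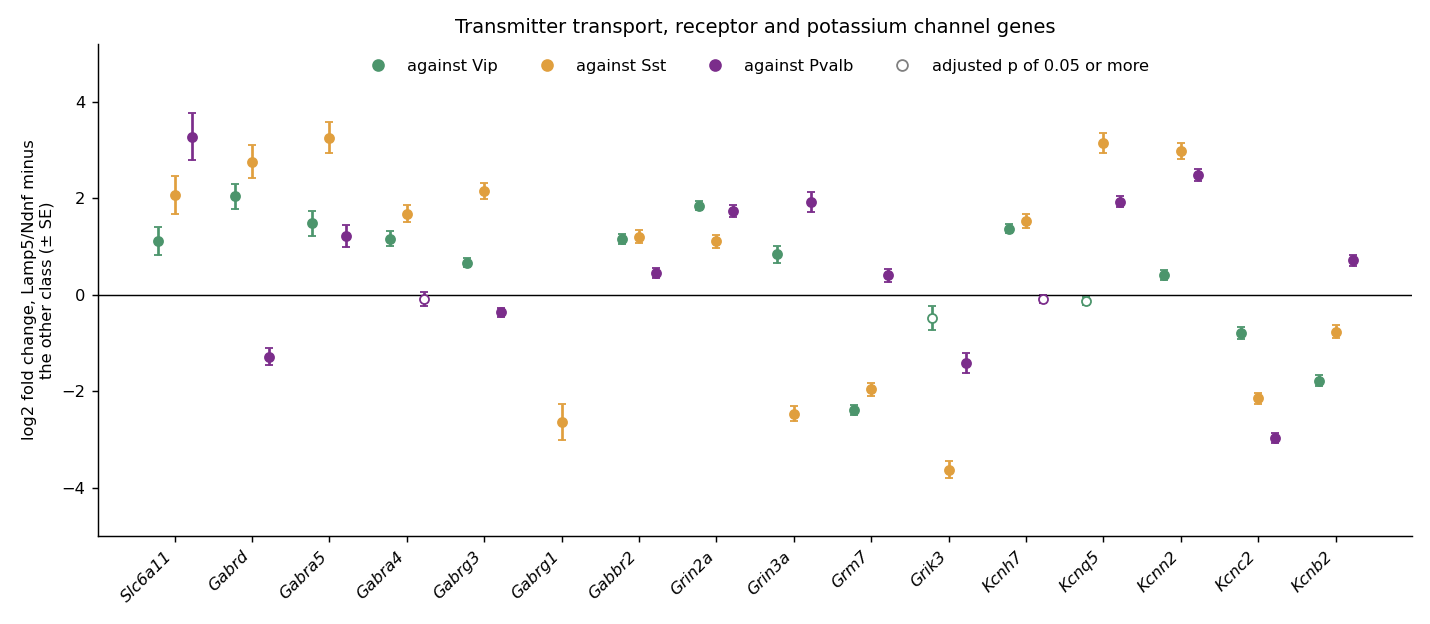
Log2 fold changes (y axis, ± SE) of 16 transmitter transport, receptor and potassium channel genes (x axis) in Lamp5/Ndnf nuclei against Vip (green), Sst (orange) and Pvalb (purple) nuclei; open points did not pass an adjusted p of 0.05, and a gene too low to be tested has no point. Gabra5, Gabbr2 and Grin2a lie above 0 in all 3 comparisons, and Kcnc2 lies below 0 in all 3.

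Against Sst interneurons, 828 of 9723 genes (8.52%) were higher in the class and 767 (7.89%) lower, 16.4% in all. Frem1, C87487, Ror1 and Ddr2 had no UMI in the Sst nuclei and 232, 155, 149 and 139 in the class, at least 41.5-fold, 27.7-fold, 26.6-fold and 24.8-fold higher by a floor of 3 UMIs over the Sst nuclei. Egfr, the epidermal growth factor receptor gene, had 1431 UMIs against 3, and its antisense neighbour Egfros 424 against 1, though the pair overlaps on opposite strands. Kit stood at 410 ± 77.3 against 2.26 ± 3.75 CPM (SD, n = 4; log2 fold change 7.20 ± 0.31), and Pde11a, a phosphodiesterase gene, at 387 against 2.83 CPM (6.51 ± 0.31). Atp6ap1l and Cdh24 were the other two of the 10 largest, with 113 and 75 UMIs against 0.

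Of 8 Sst markers outside the rule, 4 passed the filter on low counts in the class libraries alone, so single genes are given and no count. Sox6, a transcription factor gene of medial eminence cells, stood at 46.7, 44.6, 31.6 and 50.5 CPM and was lower than in Sst nuclei by a log2 fold change of -4.26 ± 0.14. Lhx6, the defining factor of that origin, was at 11.5 against 97.8 CPM (-3.13 ± 0.23). Elfn1 (-4.58 ± 0.27), Crhbp (-5.23 ± 0.37), Lypd6b (-4.37 ± 0.28), Lypd6 (-4.26 ± 0.28), Lama4 (-4.26 ± 0.28) and Alkal2 (-4.43 ± 0.54) were among the largest falls. The receptor gene Crhr2 had 0 UMIs in the class against 65, and Rbp4 and Ecel1 had 3 and 3 against 78 and 42. Npy did not separate these classes (129 ± 70.4 against 174 ± 84.3 CPM, SD, n = 4, edgeR adjusted p = 0.089), while Reln did (1.15 ± 0.15, adjusted p = 2.3e-05).

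Against Pvalb interneurons the difference was widest by count, with 1426 of 9644 genes (14.8%) higher and 1455 (15.1%) lower, 29.9% in all. Tnfaip8l3, Popdc3 and Colec12 had no UMI in Pvalb nuclei and 199, 177 and 160 in the class, at least 34.3-fold, 30.5-fold and 27.6-fold higher by a floor of 3 UMIs over the Pvalb nuclei. Pld5 had 1173 UMIs against 2, and Hcrtr2, a receptor for the arousal peptide orexin, 703 against 2. Hcrtr2 stood at 217, 213, 204 and 182 CPM in the class, also above Vip (1.5 ± 0.14) and Sst nuclei (3.97 ± 0.25). Prox1os and Gnasas1, antisense to Prox1 and Gnas, were among the 10 largest rises, with Atp6ap1l, Kit and Cdh24. Prox1 itself, a factor of caudal interneurons, was higher than in Pvalb (5.39 ± 0.39) and Sst nuclei (5.44 ± 0.39) and lower than in Vip nuclei (-1.29 ± 0.13).

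Of 12 Pvalb markers listed, 9 were tested here and 7 passed the filter in the class libraries alone, so again single genes are given. Syt2, a fast synaptotagmin, stood at 4.56 against 169 CPM (-5.02 ± 0.28), and Frmpd1, Mypn, Il1rapl2 and Nek7 were lower by log2 fold changes of -5.38, -5.32, -4.93 and -4.57. Kcnc2 and Kcnc1, potassium channel genes of fast-spiking cells, were lower by -2.98 ± 0.10 and -1.45 ± 0.12. Kcnq5 and Kcnn2, which encode a muscarine-sensitive and a calcium-activated potassium channel, were higher by 1.93 ± 0.11 and 2.48 ± 0.12. Of 32 potassium and HCN channel genes tested, 31 passed the filter in the class libraries alone, so no count is given for that list either.

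A set of 313 genes was higher in the class in all 3 comparisons and 132 were lower, out of 9073 genes tested in each. The 3 comparisons share the Lamp5/Ndnf libraries, so these counts are a description. Sv2c, Crispld1, Hapln1 and Smad3 belonged to the first set, and Rspo2, Rnf144b and Stac2 to the second. Sv2c differed by 3.16, 4.75 and 5.59, Hapln1, a link protein of the extracellular matrix, by 3.26, 4.67 and 2.97, and Rnf144b by -3.60, -3.29 and -4.18. These examples were picked after their values were seen.

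Genes of glutathione synthesis and antioxidant defence, the pathway of the knockout, were compared between classes. Against Vip nuclei 1 of 27 was higher and 5 lower, against Sst 1 of 27 and 3, and against Pvalb 0 of 25 and 10. The shares called were 22.2%, 14.8% and 40%, beside 19.0%, 16.4% and 29.9% of all genes. In the class libraries alone 26 of the list passed the filter on low counts, so the counts against Vip and Sst nuclei are a description only. The median log2 fold changes were -0.22, -0.16 and -0.34. Gss, the enzyme of the second step of glutathione synthesis, stood at 26.9 CPM against 48.3 in Vip (-0.94 ± 0.21) and 96.2 in Pvalb nuclei (-1.87 ± 0.20). Tfrc, the transferrin receptor gene, and Acsl4, a lipid enzyme gene tied to ferroptosis, were lower than in all 3 classes, in the order Vip, Sst, Pvalb, Tfrc by log2 fold changes of -0.63, -0.94 and -1.32 and Acsl4 by -1.0, -0.82 and -0.66. Of 20 immediate early and activity genes listed, 11 could be tested against Vip nuclei and 6 in the class libraries alone, so no count is given. Vgf and Fos were lower than in Vip nuclei (-2.04 ± 0.22 and -1.95 ± 0.43), and Nr4a3, Egr1 and Nr4a1 were higher than in Pvalb nuclei.

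Members with an Ndnf UMI (40, 32, 69 and 41 nuclei) were compared with members without one (50, 59, 61 and 30), all of which had Lamp5 by the rule. Of 7758 genes, 102 (1.31%) were higher in Ndnf-detected nuclei and 109 (1.41%) lower, 2.72% in all. DESeq2 called 59, with 39 higher and 20 lower. Without the library as a block edgeR called 90, and after thinning to 3000 UMIs 59, with fewer genes tested. Ndnf and Lamp5 are genes of the rule and set these groups. The calls therefore describe how the rule divides its members and give no support to the class. Reln stood at 2007, 2128, 2386 and 1757 CPM with Ndnf against 265, 264, 491 and 756 CPM without, with no overlap (log2 fold change 2.34 ± 0.21, edgeR adjusted p = 3.5e-06). Without the Meis2, Foxp2 and St18 nuclei the Reln difference was 2.18. Npy went the other way, at 29.3, 129, 68.4 and 56.2 CPM with Ndnf against 106, 286, 221 and 113 CPM without, lower in 4 of 4 libraries although the groups overlap between libraries (-1.41 ± 0.18, adjusted p = 0.00013). Nos1, the neuronal nitric oxide synthase gene, was also lower (29.9 ± 5.10 against 63.5 ± 15.0 CPM, SD, n = 4, edgeR adjusted p = 0.017), a call that DESeq2 did not make.

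Among the other genes higher with Ndnf were guidance and adhesion genes. Of 46 tested from that list 11 were higher and 1 lower, beside 1.31% and 1.41% of all genes, with a median of 0.21 beside 0.00 over all genes. Sema3e, a semaphorin, stood at 188, 170, 199 and 153 CPM against 40.8, 22, 57.0 and 49.7 CPM (2.07 ± 0.20). Cdh7, a cadherin, and Cntn6, a contactin, from the same list were higher by 2.26 ± 0.42 and 1.59 ± 0.20. Sema6a, a transmembrane semaphorin outside it, was at 375 against 101 CPM (1.93 ± 0.15). The largest rise was in C87487 (3.24 ± 0.32), followed by Dock5, Bcas1, Reln, Cdh7, Pdlim5, Sema3e, Myof, the antisense RNA Has2os and Sema6a. Dock5 and Bcas1 are also abundant in oligodendrocytes, and a Dock5 UMI was found in 41.5%, 33.6%, 39.3% and 41.9% of oligodendrocyte nuclei against 14.4%, 9.89%, 12.3% and 18.3% of members. Bcas1 stood at 12.2, 26.5, 19.1 and 120 CPM with Ndnf and at 6.12, 2.45, 5.52 and 9.94 CPM without, so its mean rests on the second 6-month library. Without the Meis2, Foxp2 and St18 nuclei Dock5 was higher by 4.14. Bcas1 was not among the genes tested in that setting or without the second 6-month library, and DESeq2 did not call it (adjusted p = 0.087). Grik1, a kainate receptor gene (1.32 ± 0.12), Grin3a (1.69 ± 0.20), Kcnc2 (1.2 ± 0.16) and Htr2a (1.06 ± 0.21), a serotonin receptor gene, were higher as well.

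Lower with Ndnf were Foxp2 (-4.00 ± 0.32) and Meis2 (-3.49 ± 0.36), at 7.79 against 146 and 24.0 against 267 CPM. The 43 nuclei with these genes carried most of both, and neither gene was among those tested without them, where 284 genes were called and 156 of these were among the 211. Dach1, Adamts3, Slit2, Chrm2, Bicc1, Dchs2, Pde1c and Arhgef37 made up the rest of the 10. Without the Meis2, Foxp2 and St18 nuclei Pde1c turned to 0.67 with no call and Adamts3 was no longer called, while Bicc1, Dchs2 and Arhgef37 were lower by log2 fold changes of -2.05, -1.58 and -1.69. Htr1f, a serotonin receptor gene (-1.02 ± 0.13), Gabrg3 (-0.56 ± 0.11) and Gabra5 (47.2 against 95.1 CPM) were lower too. Leaving out 6-month replicate 1 or 2 gave 55 and 312 calls, and 3-month replicate 1 or 2 gave 119 and 77. An Ndnf UMI is easier to find in a deeper nucleus, and the median depths were 9790.5, 7604, 8155 and 8568 UMIs with Ndnf against 8609.5, 5970, 8184 and 9979 without.

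**Figure D4:**
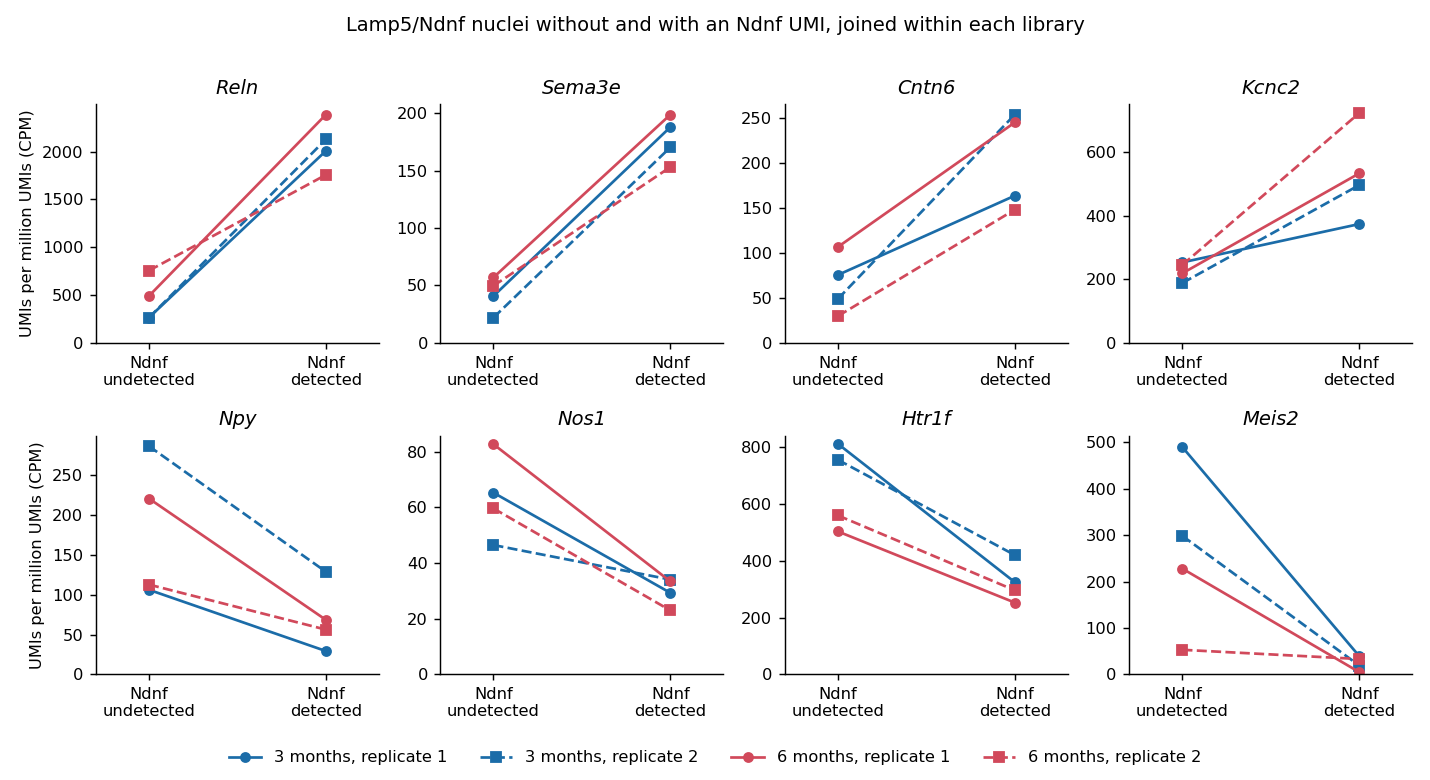
Levels (y axis, CPM) of 8 genes in Lamp5/Ndnf nuclei without and with an Ndnf UMI (x axis), each line joining the values of 1 library, blue for 3 and red for 6 months. Reln rises from at most 756 to at least 1757 CPM, and Npy and Nos1 fall in all 4 libraries.

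Age was compared over the 2 libraries at 3 months and the 2 at 6 months. The class made up 11.7% ± 0.457 (SD, n = 2) of inhibitory nuclei at 3 months and 12.0% ± 1.56 at 6 months, a difference of 0.235 percentage points (two-sided exact permutation test, p = 1). The difference was 0.887 points without the Meis2, Foxp2 and St18 members, 0.624 among members with 3 or more Lamp5 and Ndnf UMIs and 0.0416 at a common depth of 3000 UMIs. It turned to -0.0886 without 3-month replicate 2 and to -0.868 without 6-month replicate 1. The smallest p that an exact permutation test can give here is 0.333. Of the members, 44.4%, 35.2%, 53.1% and 57.7% had an Ndnf UMI, 39.8% ± 6.56 at 3 months and 55.4% ± 3.30 at 6 months (SD, n = 2 libraries). Ndnf is a gene of the rule, so this share is a description with no test. At a common depth of 3000 UMIs the difference fell from 15.6 to 8.31 points, and it was 1.5 points (72.0% and 73.5%) among members with 3 or more UMIs of Lamp5 and Ndnf.

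Of 9375 genes, 1 was called between the ages, 0.0107% of those tested. Unadjusted p was under 0.05 for 492 genes by edgeR and 121 by DESeq2, which also called 1 gene. With 2 libraries against 2, 33.8% of all genes had ages that did not overlap, so non-overlap alone says little here. The called gene was Pbx3, a homeodomain factor gene and partner of Meis proteins, at 220, 186, 69.1 and 50.5 CPM, lower at 6 months (log2 fold change -1.73 ± 0.22, edgeR adjusted p = 0.026). In Vip nuclei Pbx3 stood at 119, 130, 182 and 121 CPM. Meis2 in the class stood at 285, 189, 108 and 41.8 CPM (-1.58 ± 0.32, adjusted p = 0.29), and without the Meis2, Foxp2 and St18 nuclei Pbx3 was at -1.19 with no call (edgeR adjusted p = 0.73). It was not called either without Scrublet doublets (-1.73, adjusted p = 0.11) or among members with 3 or more Lamp5 and Ndnf UMIs (-1.40, adjusted p = 0.95). The part of those nuclei in the Pbx3 difference was not tested further. With the recorded batch number, which equals the replicate number, as a block, 16 genes were higher and 11 lower, Pbx3 among them. Leaving out 3-month replicate 1 or 2 gave 46 and 214 calls and leaving out 6-month replicate 1 or 2 gave 45 and 4, with Pbx3 in each, where the lone library of an age is assumed to vary like the others.

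Oligodendrocyte RNA differed between the libraries of the class. The summed level of 8 oligodendrocyte markers was 94.5, 211, 298 and 802 CPM, all 8 were detected and Mbp, a myelin protein gene, was the most abundant at 33.4, 55.0, 98.9 and 296 CPM. Mbp did not pass the test (2.15 ± 0.44, edgeR adjusted p = 0.3). Over all nuclei that sum was 855, 643, 1113 and 1104 CPM. Its part in the age values was not tested.

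No list held a call between the ages, where 0.0107% of all genes were called, so the absence of calls is no result about the lists. Reln stood at 1414 CPM at 6 months and 1027 at 3 months (0.47 ± 0.14, edgeR adjusted p = 0.66), with both 6-month libraries higher, and Htr1f at 390 and 607 CPM (-0.63 ± 0.15, adjusted p = 0.52). Of 26 glutathione and antioxidant genes none was called and the median was 0.03, and of 8 integrated stress response and 6 immediate early genes none was called, with medians of 0.08 and -0.08. Gclc was at 39.7 CPM at 3 months and 34.9 at 6 months (-0.17 ± 0.29, adjusted p = 1). In the self-test of this comparison on 8944 genes, edgeR recovered 62.5% of simulated 4-fold changes and 7.53% of 2-fold changes. The simulation gave every gene the same assumed spread, not one estimated from these libraries, and the rates depend on it. Under that spread smaller changes would mostly be missed at this depth.

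Whether age acted differently in the class than in the other interneurons was tested with an interaction term over the class and the summed Vip, Sst and Pvalb nuclei. Of 11331 genes 4 passed, 0.0353%, all with a lower age difference in the class. Pcdh15, a protocadherin gene, was at 669, 934, 432 and 528 CPM in the class and 665, 897, 969 and 1012 CPM in the other interneurons (-1.08 ± 0.17, edgeR adjusted p = 0.035). Pbx3 differed by -1.66 ± 0.24, with 78.8, 56.2, 66.9 and 60.4 CPM in the others. Meis2 differed by -4.23 ± 0.56, with 1.77, 4.32, 20.2 and 21.9 CPM in the others. The first of these values lies below the floor of 3 UMIs (2.65 CPM), so the size of the Meis2 difference is uncertain. Pard3b, a polarity protein gene, stayed between 56.7 and 71.4 CPM in the class while in the others it was at 15.0, 15.8, 92.7 and 64.2 CPM (-2.31 ± 0.33, adjusted p = 0.018). In Sst nuclei alone Pard3b was at 53.4, 33.2, 204 and 170 CPM, and Sst nuclei were a changing part of the others, 10, 52, 75 and 31 of them. DESeq2 called 1 of the 4, Meis2, and without the Meis2, Foxp2 and St18 nuclei Pcdh15 and Pard3b were called. Those nuclei were chosen partly by Meis2 and only in the class, so no conclusion is drawn from its lost call. Leaving out 3-month replicate 1 or 2 gave 21 and 56 calls, and 6-month replicate 1 or 2 gave 9 and 2. Pcdh15 and Pbx3 were not called without either 6-month replicate, and Pard3b was not called without 6-month replicate 1. Among members with 3 or more Lamp5 and Ndnf UMIs, Pcdh15 was the 1 of the 4 still called, and Meis2 and Pard3b (each adjusted p = 0.058) and Pbx3 (-1.24, edgeR adjusted p = 0.91) were not. Without the library as a block 0 genes passed in edgeR, with an unadjusted p under 0.05 for 295.

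**Figure D5:**
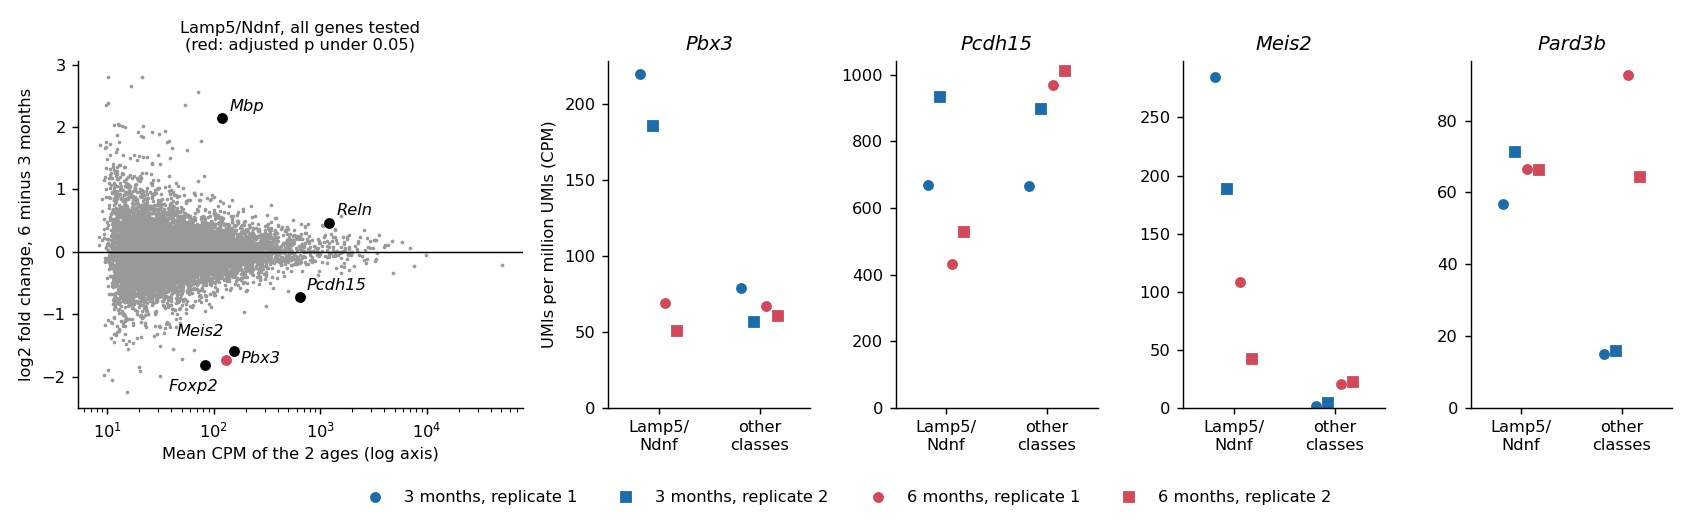
Left, log2 fold change between 6 and 3 months (y axis) against mean CPM (x axis, log scale) for the genes tested in Lamp5/Ndnf nuclei, with Pbx3 in red as the called gene; right, levels (CPM) of the 4 genes called by the interaction test in the class and in the summed other interneurons, blue for 3 and red for 6 months. Pbx3 is at 186 CPM or more at 3 months and 69.1 CPM or less at 6 months in the class, and Pard3b lies between 56.7 and 71.4 CPM in the class at both ages.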

How the data were processed

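The deposited values are unnormalized UMI counts, which the authors made with Cell Ranger 7.0.0 (per the file headers) against mm10 (per the labels' processing notes) from 10x 3′ libraries. Nuclei were chosen by the rule above, and counts were summed per library and class. Sums were tested with edgeR 4.0.16 (TMM, filterByExpr, quasi-likelihood) in R 4.3.3, with the library as block between classes, and with DESeq2 1.42.0 as an alternative. The labels name a mouse per library and do not say whether animals were pooled, so p-values measure the spread between these libraries. Replicate libraries differed beyond sampling noise (chi-square per degree of freedom 3.17 and 1.98). The recorded batch numbers equal the replicate numbers. Deviations of replicates that share a number did not correlate across ages (r = -0.0501 over 9375 genes, a description). The members and the 30 gene lists were chosen with earlier results of these data known. Named genes are the 10 largest changes in each direction past the threshold, with a mean of 20 CPM or more where higher and alike in all 4 libraries, without predicted genes, and up to 4 per list. On simulated data for the Vip comparison (9211 genes), with the same assumed spread for every gene, edgeR recovered 87.1% of 4-fold changes. Of its calls there 7.21% were false. Wilson intervals (95%) and floors of 3 UMIs cover counting error only. GENCODE M21 held 32235 of the 32285 gene identifiers. Some genes are not reported here.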

Additional observations from a re-analysis of the deposited data

Results flagged for a closer look

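The age difference in Lamp5/Ndnf nuclei minus that in the other interneurons passed the interaction test for 4 genes. It was -4.23 for Meis2, -2.31 for Pard3b, -1.66 for Pbx3 and -1.08 for Pcdh15 on the log2 scale. The class held 18, 10, 10 and 5 Meis2 and Foxp2 nuclei in the 4 libraries, and its Meis2 level was 285, 189, 108 and 41.8 CPM. Without these and the St18 nuclei the difference was -3.58 for Meis2 (edgeR adjusted p = 0.38) and -1.14 for Pbx3 (adjusted p = 0.79), neither of them called. The nuclei removed were chosen partly by Meis2 itself, and only in the class. The lost Meis2 call therefore cannot decide whether its age difference rests on them. Groups of 2 libraries per age are too small for a test of outlying samples.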

How the results depend on the processing

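For 297 called results, each a named gene in 1 comparison, 3223 repeats kept direction and call in 2930, lost the call in 287 and turned in 6. A repeat was counted only where the gene was tested in that setting, so results that dropped out are not among the losses. Thinning covered 107 of the 297, the stricter members 254, fits without the block 262, and fits without the Meis2, Foxp2 and St18 members 274. DESeq2 called 971, 989 and 1593 genes against Vip, Sst and Pvalb nuclei, 59 in the Ndnf comparison and 1 in the interaction. Thinning to 3000 UMIs left 761, 350 and 59 calls for Vip, Sst and Ndnf, with fewer genes tested. Without a filter on low counts there were 49, 40 and 365 calls for age, interaction and Ndnf. Without Scrublet doublets age had 0 calls and the interaction 9. Members with 3 or more Lamp5 and Ndnf UMIs gave 0, 2 and 109 for age, interaction and Ndnf. Without the Meis2, Foxp2 and St18 members (chosen after seeing the data) age had 0 and the interaction 2. The replicate block raised the age calls to 27, and without a block the interaction had 0 and Ndnf 90 calls. Without the block, counts against Vip, Sst and Pvalb nuclei were 1280, 1288 and 2140. The replicate block cannot change the share differences, since each age has both replicate numbers, so it is no check on them. Leaving out 1 library gave 4 to 214 calls for age, 2 to 56 for the interaction, 55 to 312 for Ndnf, 1442 to 1563, 1107 to 1520 and 2208 to 2544 against Vip, Sst and Pvalb nuclei, an Ndnf share difference of 11 to 20.2 points, and a class share difference of -0.868 to 1.34 points, including -0.0886 without 3-month replicate 2.

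The 6 turned values were Meis2 against Vip at -1.48, St18 against Pvalb at -3.06 and Pde1c with Ndnf at 0.67 without the Meis2, Foxp2 and St18 members, St18 against Pvalb at -0.73 without doublets, Fyn against Sst at -0.12 after thinning and Kcnd2 with Ndnf at 0.31 in the stricter members. Except where the members removed carry the gene itself, the cause was not tested. Thinned Pvalb sums held too few nuclei and were not run. Where edgeR called 0 genes between ages, unadjusted p was under 0.05 for 467 genes without doublets, 317 in the stricter members and 381 without the Meis2, Foxp2 and St18 members, and for 295 in the interaction without a block. Thinned Sst sums used 2 of the 4 libraries, and Sst sums without doublets and the stricter Ndnf sums used 3.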
